A study of Mus musculus with 24 samples.

Results

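The regions described here are peaks of STAU2 RNA immunoprecipitation (RIP) that lie in the 3' untranslated region (3' UTR) of protein-coding genes in the embryonic mouse cortex. A listed peak was a member when its midpoint fell in a 3' UTR of a protein-coding gene on its own strand, over all coding transcripts of the GENCODE annotation and without bases that are coding in any transcript. Of 29007 listed peaks, 8803 (30.3%) met this rule, and they lay in 4295 host genes. The study immunoprecipitated STAU2 from cortical lysate at 4 embryonic days (E11.5 and E13.5, then E15.5 and E17.5) and sequenced the bound RNA and, as its reference, RNA of the input. There are 8 groups of 3 libraries by the labels, STAU2 RIP and input at each day, and each biological replicate was made from the cortices of a litter pooled together. No strain or genotype is given, the sequenced RIPs have no sequenced RIP with a control antibody beside them, and cortex at these days holds progenitors, neurons, vessels and meninges together. All libraries of a day stand behind 1 list per strand, whose p, q and signal per peak are the authors' own. Whether their test was one-sided is not stated, so a listed peak marks a difference of RIP from input of unknown direction. There are no values per replicate, so days cannot be tested against each other. The intervals below are exact 95% intervals over peaks or genes, cover counting error only, and do not cover the spread between litters.

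STAU2 is a member of the Staufen family, proteins that bind double-stranded RNA, such as the paired stem of a hairpin, and travel with messenger RNAs in ribonucleoprotein granules. In neurons it takes part in carrying messenger RNAs into dendrites and in keeping them stable, and in dividing cortical progenitors it is passed unequally to the daughter cells together with its cargo. The 3' UTR, the stretch between the stop codon and the poly(A) tail, is the part of a messenger RNA where most known signals for localisation and stability lie. Its length differs between transcripts of a gene, since a gene can use several polyadenylation sites, and neurons are known for using distal ones.

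The sequences below show what such a peak can hold: for each, the 30-base window of the peak that RNAfold folds most stably, written 5' to 3' on the RNA strand with T for U, with bases in capitals where they are paired in that fold. The first 4 come from the 3' UTR peak with the smallest deposited p of each day, in time order. The other 4 come from a peak at a position listed on 3 or 4 days, where peaks of different days need not cover the same bases. Here and below, the strongest peak is that with the smallest deposited p, and a rank is its place among all listed peaks of its day, with 1 for the smallest.
Ccdc50: GAACAAAGgttCTTTgGTTCagtgacaata
Sfr1: ctcAAGtGGCAtaaatgtagccTGCCCTTc
Rcn2: ttgaAGACATGgaggatttagaCATGTCTa
Plagl1: cTTTGAAGACActacatttTGTTTTTGAGa
Hmgn5: tagTGCAAaATATAaaaTGTATacTTGCAa
Npepps: CCTTTTTGGcaTGGgaaCCGaCCAGGAAGG
Ywhaz: GCCCAtGTGactgaCACTGGGCagcattaa
Gsk3a: CTCTCCCCaTCCTggaAGGAGGGGAGtAGa
These windows lie in mm10 at chr16:27450410-27450439 (plus strand, Ccdc50), chr19:47735421-47735450 (plus, Sfr1), chr9:56058506-56058535 (plus, Rcn2) and chr10:13131380-13131409 (plus, Plagl1). Those of the recurrent positions lie at chrX:109004884-109004913 (minus, Hmgn5), chr11:97206583-97206612 (minus, Npepps), chr15:36771358-36771387 (minus, Ywhaz) and chr7:25228343-25228372 (minus, Gsk3a). All 8 are in a 3' UTR exon. The Gsk3a window had 12 base pairs and a predicted free energy of -16.4 kcal/mol, the Npepps window 12 pairs and -10.4 kcal/mol, and the Hmgn5 window 10 pairs and -4 kcal/mol. Because each window is the most stable of its peak, its energy describes that window and says nothing about peaks in general. The Hmgn5 and Npepps windows lie within the bases covered on all 3 of their days. The Gsk3a window lies outside the E11.5 peak, and the Ywhaz window outside the E15.5 peak, of their positions.

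Members were few at E11.5 and many at E15.5. There were 1130 at E11.5, 1686 at E13.5, then 3733 at E15.5 and 2254 at E17.5. Set against all listed peaks of the day, this was 17.3% (interval 16.4 to 18.2) of 6530, 28.7% (27.6 to 29.9) of 5871, 36.4% (35.4 to 37.3) of 10265 and 35.5% (34.4 to 36.7) of 6341. The authors listed a region when its deposited q was below 0.01. By estimate this took in 21.9% of the candidate regions at E11.5, 19.3% at E13.5, then 37.3% at E15.5 and 36.4% at E17.5. The days thus also differ in how much was called. The hosts numbered 884, 1391, 2636 and 1749 over the 4 days, or 4.21%, 6.62%, 12.5% and 8.32% of the 21021 protein-coding genes that have a 3' UTR, and 20.4% held a peak on any day. Between 95.8% and 97.4% of the peaks of a list that fell in a 3' UTR of 1 strand only were on the strand of that list. Peaks in exons of 2 or more genes made up 0.92% of the members (81), and for these the host cannot be told apart from its neighbour.

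Most hosts belonged to a single day. Of the 4295 hosts, 2611 (60.8%) held a 3' UTR peak on 1 day, 1116 on 2 days, 455 on 3 days and 113 (2.63%) on all 4. E15.5, the longest list, had 1204 hosts of its own, E17.5 had 690, E13.5 had 433 and E11.5 had 284. The same count was not made for genes with other peaks, so it is not shown to be particular to 3' UTR peaks. The 113 hosts of all 4 days had a median longest 3' UTR of 1718 bases (1507 to 1865), and the hosts of 1 day 1470 bases (1395 to 1536). Most hosts held 1 peak on a day: 167 of the 884 hosts at E11.5, 231 of 1391 at E13.5, then 732 of 2636 at E15.5 and 375 of 1749 at E17.5 held 2 or more. Where a host held several, neighbouring peaks were close, with a median gap of 326, 327, 306 and 202 bases from E11.5 to E17.5 in time order.

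Peaks were spread along the whole 3' UTR, and relative to its length their centre lay further along at E17.5 than at E11.5, whereas in bases it lay nearer to both the stop codon and the end at E17.5. On a scale from 0 at the stop codon to 1 at the annotated end, taken on the longest 3' UTR that holds the midpoint, the median position was 0.446 (0.421 to 0.471) at E11.5, 0.477 (0.452 to 0.505) at E13.5, then 0.474 (0.458 to 0.489) at E15.5 and 0.524 (0.501 to 0.541) at E17.5. An even spread of midpoints would give 0.5. What the width of peaks, at least 48 bases, does to midpoints near the annotated end was not tested. Each 3' UTR was also divided into 10 equal bins. At E11.5 the bin after the stop codon held 12.7% of the peaks and the bin before the end 5.75%, and at E17.5 these held 10.1% and 7.63%. The bin before the annotated end held under 10% of the peaks on all 4 days. Counted in bases, the median peak lay 854 bases (790 to 930) before the end at E11.5, 617 (586 to 659) at E13.5, then 683 (651 to 711) at E15.5 and 492 (467 to 521) at E17.5. Within 250 bases of the end lay 16.1%, 19.9%, 17.1% and 24% of the peaks, in the same order. After the stop codon the median peak lay 688 bases (635 to 752) at E11.5, 628 (579 to 673) at E13.5, then 673 (641 to 716) at E15.5 and 573 (530 to 616) at E17.5. Within 250 bases of the stop codon lay 24.2%, 25.4%, 24.1% and 28% of the peaks. The 3' UTRs that held the peaks also differed in length between days, as given below.

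**Figure D1:**
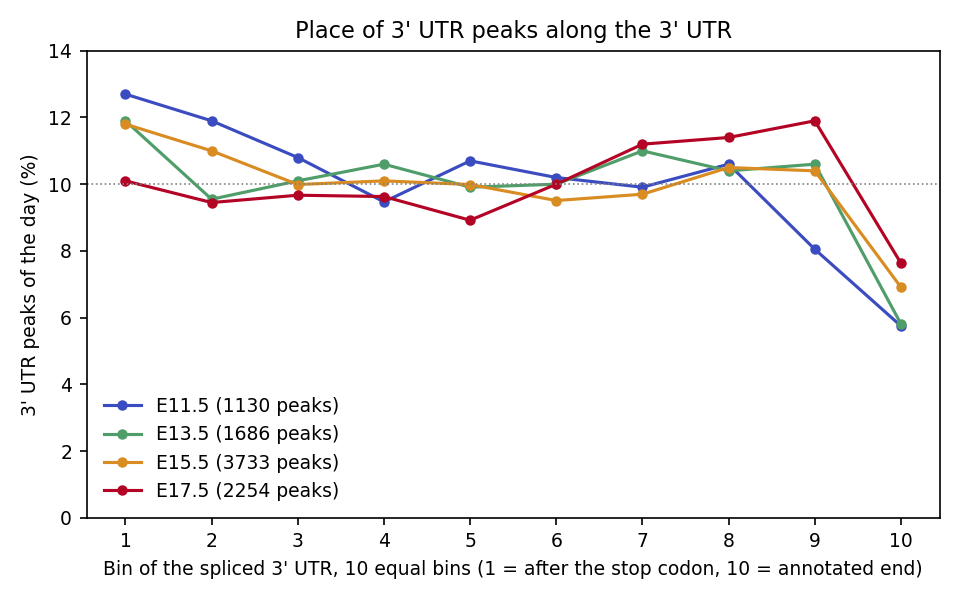
Share of the 3' UTR peaks of a day (percent, y axis) whose midpoint fell in each of 10 equal bins of the spliced 3' UTR (x axis, stop codon at the left, annotated end at the right), with a line for each day and the 10% of an even spread dotted. E11.5 is highest in bin 1 (12.7%) and E17.5 in bin 9 (11.9%), and all 4 lines drop in bin 10.

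The days differed most in long 3' UTRs. In 3' UTRs of 4000 bases and more, the median position was 0.426 (0.33 to 0.479, 191 peaks) at E11.5, 0.474 (0.349 to 0.598, 166 peaks) at E13.5, then 0.544 (0.487 to 0.61, 506 peaks) at E15.5 and 0.76 (0.65 to 0.824, 147 peaks) at E17.5. The E17.5 interval lay above those of the other 3 days. The share of these peaks in the final 20% of the 3' UTR was 15.2% at E11.5, 26.5% at E13.5, then 30.2% at E15.5 and 43.5% at E17.5. In 3' UTRs of 2000 to 3999 bases the medians were 0.472, 0.544, 0.518 and 0.688 (0.64 to 0.718) in time order. In those under 500 bases they were 0.345, 0.372, 0.304 and 0.316, with intervals that overlap. Taking the strongest peak of each host alone gave 0.436, 0.496, 0.583 and 0.77 for 3' UTRs of 4000 bases and more.

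**Figure D2:**
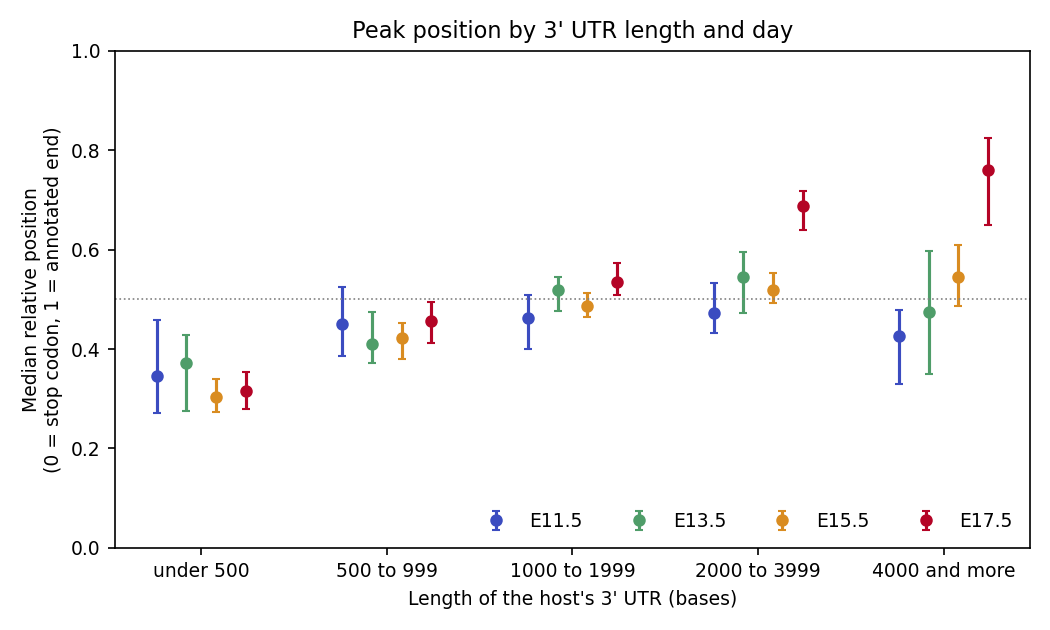
Median relative position of 3' UTR peaks (y axis, 0 at the stop codon and 1 at the annotated end) by length of the host's 3' UTR in bases (x axis) and day (colour), with exact 95% intervals over peaks and 0.5 dotted. The days overlap under 500 bases and part with length, and stand at 0.76 at E17.5 and 0.426 at E11.5 in 3' UTRs of 4000 bases and more.

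The same genes were also compared on pairs of days, by relative position. Among 267 genes with 3' UTR peaks at both E17.5 and E11.5, the median over genes of the mean position was 0.517 at E17.5 and 0.44 at E11.5. The peaks lay further along at E17.5 in 159 of these genes and nearer in 107, which is 59.8% (53.6 to 65.7) of those that differed. Of the 84 with a 3' UTR of 2000 bases or more, 58 had their peaks further out at E17.5 and 26 nearer. Medians over the 84 were 0.704 at E17.5 and 0.464 at E11.5. The median of the differences within genes was 0.18 for the 84, and 0.0601 for all 267. E17.5 set against E15.5 gave 190 further out and 99 nearer among 290 such genes, with medians of 0.7 at E17.5 and 0.515 at E15.5. Within genes the median difference was smaller, at 0.0667. E17.5 against E13.5 gave 83 further out and 63 nearer among 146 such genes, with a median difference within genes of 0.0149. Over all 489 genes shared by E17.5 and E13.5 that difference was 0.00627. E15.5 against E13.5 went the other way, with the peaks further out at E15.5 in 319 of 751 genes and nearer in 430. The median difference within these genes was -0.0247. In shared genes the direction thus differed between pairs of days. Positions rest on annotated ends; 37.9% of the members lie in genes with more than 1 annotated 3' UTR length at that place, and which end was in use on a day was not measured here.

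Hosts had longer 3' UTRs than mouse genes at large, and those of E17.5 were the shortest of the 4 days. The median 3' UTR length of the hosts was 1760 bases (1663 to 1872) at E11.5, 1423 (1346 to 1506) at E13.5, then 1582 (1514 to 1662) at E15.5 and 1250 (1189 to 1306) at E17.5. Measured for each gene by its longest 3' UTR, the hosts had 1816, 1476, 1628 and 1302 bases, against 961 (942 to 983) for all protein-coding genes with a 3' UTR. Genes with a peak in the coding sequence (CDS) had a median longest 3' UTR of 1436, 885, 834 and 566 bases on those days. The order of E11.5 above E17.5 was therefore seen for CDS peaks as well. A longer 3' UTR also offers more bases in which a midpoint can fall, and the part of this in the excess over all genes was not tested.

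Long 3' UTRs were taken up more often than short ones, though not on every day alike. At E15.5, 4.13% (3.67 to 4.64) of genes with a longest 3' UTR under 500 bases were hosts, and 21.6% (19.6 to 23.9) of those with 4000 bases and more. At E11.5 these shares were 1.07% (0.839 to 1.35) and 8.93% (7.52 to 10.5). At E17.5 the share was highest in the middle class, 11.8% (10.9 to 12.7) at 1000 to 1999 bases, and stood at 7.77% (6.44 to 9.26) at 4000 bases and more. E13.5 was level above 1000 bases, at 9.17%, 9.15% and 9.07%. Per base the order turned round: at E15.5 there were 179 peaks per Mb of 3' UTR in genes under 500 bases and 62.2 in those of 4000 bases and more, and at E17.5 there were 161 and 17.9.

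**Figure D3:**
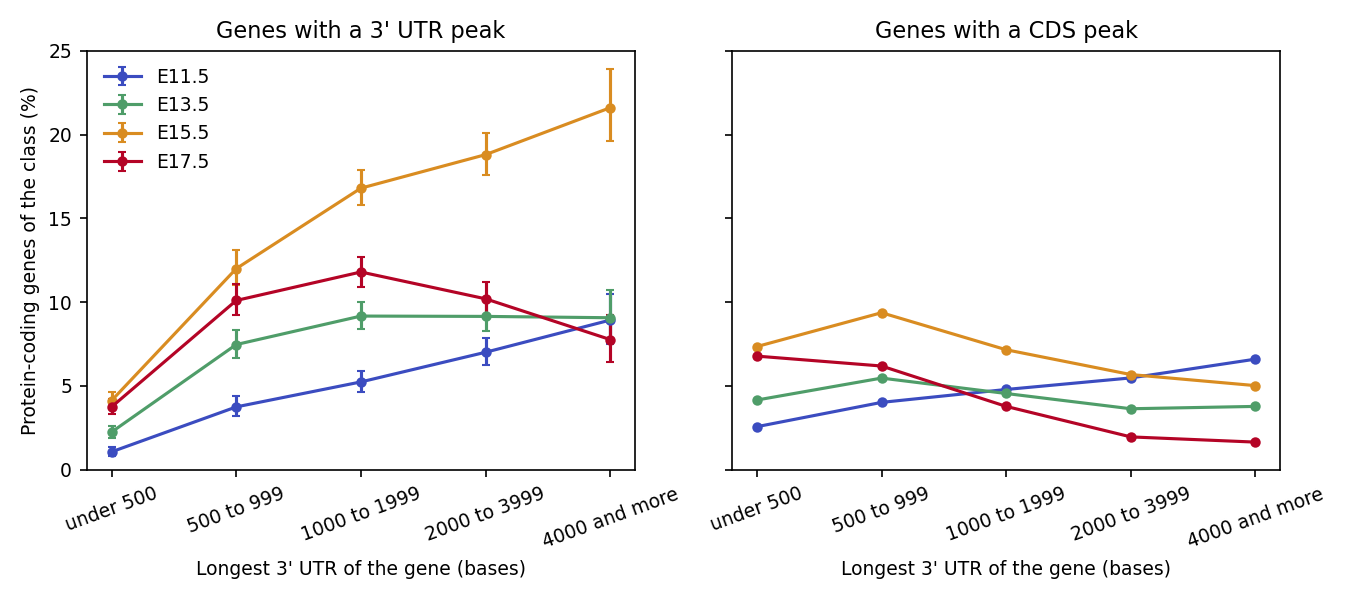
Share of protein-coding genes (percent, y axis) with at least 1 peak in the 3' UTR (left, exact 95% intervals over genes) or in the CDS (right) by the gene's longest 3' UTR in bases (x axis) and day (colour). The E15.5 line for 3' UTR peaks climbs to 21.6% at 4000 bases and more, whereas at E17.5 the CDS share falls with length to 1.65%.

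Single hosts show how the placement differed. Nova2, a splicing regulator of neurons, and Zrsr2, a protein of the minor spliceosome, held the most members over the 4 days, 16 each. Nova2 has a 3' UTR of 6701 bases. It held 2 peaks at E11.5, 4 at E13.5, then 8 at E15.5 and 2 at E17.5. The best-ranked were chr7:18964325-18964375 at E11.5, chr7:18960420-18960515 at E13.5, then chr7:18962509-18962574 at E15.5 and chr7:18964381-18964459 at E17.5. Both E17.5 peaks lay beyond 0.7 of its length, at 0.725 and 0.866, while at E15.5 peaks lay from 0.0176 to 0.845. The region around 0.85 of the Nova2 3' UTR was listed on all 4 days, with midpoints at bases 5732, 5721, 5662 and 5802 after the stop codon in time order; the E17.5 and E11.5 peaks there did not overlap each other. Zrsr2 held none at E11.5, 4 at E13.5, then 2 at E15.5 and 10 at E17.5 in a 3' UTR of 3160 bases. Its 4 peaks at E13.5 were 92, 975, 517 and 741 bases wide, and its 10 at E17.5 from 50 to 165 bases. The larger number of peaks at E17.5 is thus not a larger covered length.

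Gnaq, Csnk2a2, Rbfox2 and Zfp664 followed with 14 members each. Gnaq, which encodes a G protein alpha subunit, held 12 peaks at E11.5, with midpoints from 0.0111 to 0.976 of its 4069 bases. Stretches between these peaks were not covered. Gnaq held 1 each at E13.5 and E15.5, and none at E17.5. Csnk2a2, which encodes a catalytic subunit of casein kinase 2, held none at E11.5, 8 at E13.5, then 6 at E15.5 and none at E17.5. They ranged from 48 to 1828 bases in width, and the widest was chr8:95450329-95452156 at E15.5. Rbfox2, another splicing regulator, had no 3' UTR peak at E11.5, 4 at E13.5, then 7 at E15.5 and 3 at E17.5. Its median position was 0.526, 0.694 and 0.75 on the 3 days with peaks. Zfp664, a zinc finger gene, had 3, 2, 5 and 4 peaks over the 4 days. Many peaks in a host on a day are not independent of each other, since they share a transcript.

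**Figure D4:**
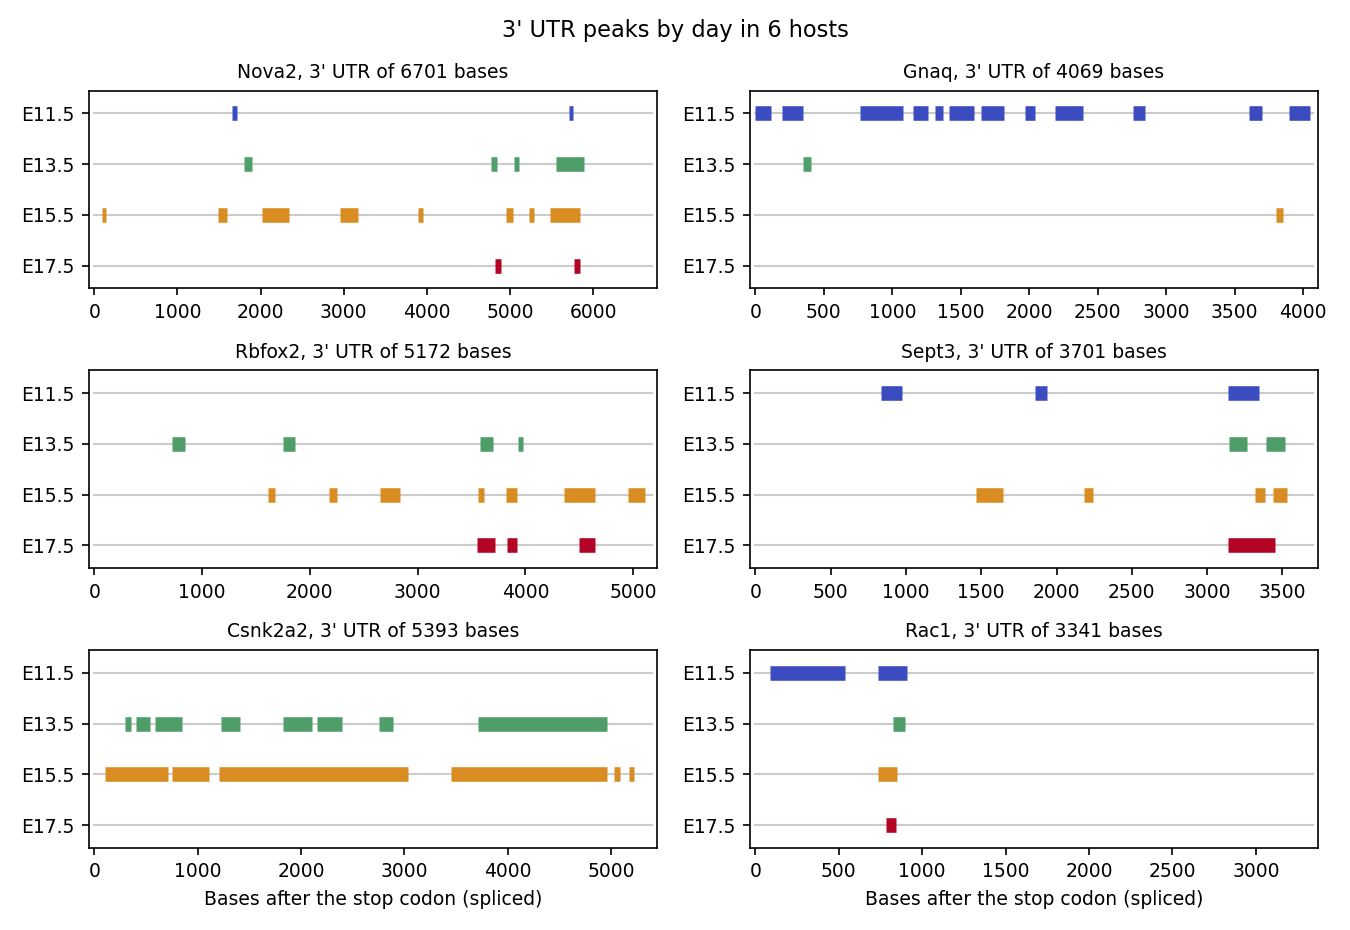
Peaks (bars, drawn at their width around the midpoint) along the spliced 3' UTR of 6 hosts, in bases after the stop codon (x axis), with a line for each day from E11.5 at the top to E17.5 at the bottom. Gnaq has 12 peaks at E11.5 with gaps between them, and Csnk2a2 has peaks at E13.5 and E15.5 alone. Nova2 and Sept3 keep distal peaks at E17.5, and Rac1 has a peak at the same place on all 4 days.

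Of the 113 hosts listed on all 4 days, those with the best mean rank of the deposited p were Capzb, Nova2, Sept3, Msi1, Rac1, Slc25a23, Atad2b and Sbk1. Capzb encodes a subunit of the protein that caps actin filaments, Rac1 a GTPase that governs actin, and Sept3 a neuronal septin. In the 766 bases of the Capzb 3' UTR, peaks had their midpoints at bases 244 and 690 at E11.5, 225 and 680 at E13.5, then 145 and 690 at E15.5, and 223 at E17.5. The distal Capzb site was not listed at E17.5. Sept3 held peaks at 0.876 of its 3701 bases at E11.5, 0.866 and 0.933 at E13.5, 0.905 and 0.941 at E15.5, and 0.89 at E17.5. The peaks it also held before 0.6 were listed at E11.5 and E15.5 alone. Msi1, an RNA-binding protein of neural progenitors, had median positions of 0.278, 0.527, 0.366 and 0.701 over the days. Atad2b, a bromodomain ATPase gene, had its E17.5 peak near the stop codon, at 0.0577, against medians of 0.749, 0.624 and 0.743 on the earlier days.

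Most positions were listed on a single day. Overlapping peaks were joined into 7204 positions, of which 6015 (83.5%) were listed on 1 day, 932 on 2, 211 on 3 and 46 on all 4. The shares in this paragraph were not computed over all listed peaks. They are therefore not shown to be particular to 3' UTR peaks. In 27 of the 46, at least 1 base was covered on all 4 days. Of the E17.5 peaks, 24.3% (22.6 to 26.1) were overlapped by an E15.5 peak, and of the E15.5 peaks 14.8% (13.6 to 15.9) by an E17.5 peak. E17.5 peaks were overlapped by E11.5 peaks in 6.83% (5.83 to 7.95), and E11.5 peaks by E17.5 peaks in 13.7% (11.8 to 15.9). Where the host was listed on the other day too, 45.3% of E17.5 peaks were overlapped by E15.5 peaks and 40.8% by E11.5 peaks.

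In Rac1 a peak lay at the same place on all 4 days. These peaks were chr5:143506065-143506241 at E11.5, chr5:143506077-143506150 at E13.5, chr5:143506127-143506241 at E15.5 and chr5:143506129-143506192 at E17.5, on the minus strand. Their midpoints fell between bases 791 and 861 of a 3' UTR of 3341 bases. The 22 bases covered on all 4 days, chr5:143506129-143506150, read as follows, with no capitals since no pairing is marked.
Rac1 common bases: tatcagtgtctcttgagcatcc
In Ywhaz, which encodes the adaptor protein 14-3-3 zeta, wide peaks of 706, 603, 538 and 609 bases shared 417 bases (chr15:36770879-36771295) near the end of the 3' UTR, at 0.778, 0.789, 0.868 and 0.788. Wdr1, a partner of cofilin in taking actin filaments apart, shared 2 bases over the 4 days. Tsnax and Slc25a23 had chains of overlapping peaks with no base common to all days. Among positions of 3 days, the Gsk3a peaks at E11.5, E13.5 and E17.5 shared 154 bases, the Npepps peaks on the later 3 days shared 135, and the Hmgn5 peaks at E11.5, E13.5 and E15.5 shared 106. Gsk3a encodes a kinase of Wnt and insulin signalling, Npepps an aminopeptidase and Hmgn5 a nucleosome-binding protein.

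The hosts with the smallest deposited p differed between days. At E11.5 they were Ccdc50, Rfng, Ttc32, Gng3, Arl8a and Trmt112, whose leading peaks lay at 0.7, 0.394, 0.414, 0.0587, 0.191 and 0.458 of the 3' UTR. Rfng encodes a glycosyltransferase that acts on Notch, Gng3 a G protein gamma subunit and Arl8a a GTPase that moves lysosomes. The leading peaks of Rfng and Gng3 were overlapped by peaks of E15.5 and E17.5, and Ccdc50 and Ttc32 had no 3' UTR peak on any other day. Arl8a was overlapped at E17.5 and Trmt112 at E15.5.

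At E13.5 the leading hosts were Sfr1, a factor of recombination, Zfp395, the kinase gene Sik3, the reductase gene Cyb5r3, Vps37b of endosomal sorting and the sialyltransferase gene St3gal1. The leading peaks of these hosts lay at 0.687, 0.62, 0.333, 0.818, 0.423 and 0.882. Zfp395 and Sik3 were hosts at E13.5 alone. The leading Sfr1 peak, at 0.687, was overlapped at E15.5 and E17.5, and so was that of Cyb5r3, at 0.818. At E15.5 Rcn2, Mycn, Xiap, Hnrnpll, Actb and Mapre1 led, at 0.363, 0.14, 0.541, 0.564, 0.154 and 0.968. Mycn, a transcription factor of proliferating progenitors, had its leading peak at 0.14 of 913 bases, and Actb, beta-actin, at 0.154 of 683 bases. Mapre1, which encodes a protein that tracks growing microtubule ends, had its peak at 0.968 of 6380 bases. None of these 6 leading E15.5 peaks was overlapped by a 3' UTR peak of another day. At E17.5 Plagl1, Rraga, Fam124a, Gsk3a, Leprot and Trp53bp1 led, at 0.896, 0.802, 0.834, 0.662, 0.486 and 0.898. Fam124a and Leprot were hosts at E17.5 alone. The Plagl1 peak had the smallest deposited p of all members, 1.04e-08, and Plagl1, an imprinted zinc finger gene, held 2 peaks at E13.5 and 3 at E15.5, of which 1 at E15.5 overlapped it.

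Among gene groups, transcripts of the neuronal cytoskeleton and of synapses were hosts more often on the later days. The counts below are genes of a list with at least 1 member, to be read beside the 4.21%, 6.62%, 12.5% and 8.32% of all genes. Of 28 cytoskeleton genes, 2 (7.14%) were hosts at E11.5, 9 (32.1%) at E13.5, then 16 (57.1%) at E15.5 and 17 (60.7%) at E17.5. The 2 of E11.5 were Capzb and Map1b. Map1b, a microtubule-associated protein, held 4 peaks at E11.5 and 1 each at E15.5 and E17.5. Spire1, an actin nucleator, held 2 peaks at E13.5, then 5 at E15.5 and 1 at E17.5. Kif1b, a kinesin motor of axonal transport, held 1, 6 and 1 on these days. Hosts at E17.5 alone were Ank2 (rank 93 of the day, at 0.0435), Tubb2b (at 0.166), Dpysl3 (at 0.883) and Stmn1 (at 0.23). Dcx, the microtubule protein of migrating neurons, held 1 peak at E13.5 and 3 at E15.5, the strongest at 0.93 of 7709 bases. Mapt, which encodes tau, held 2, 5 and 1 peaks on the later 3 days.

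Of 30 genes of synapses and calcium signalling, 4 (13.3%) were hosts at E11.5, 8 (26.7%) at E13.5, then 13 (43.3%) at E15.5 and 14 (46.7%) at E17.5. At E11.5 Calm3, Dlg4 and Vamp2 each held 1 peak, close to the stop codon at 0.0364, 0.0375 and 0.169. At E17.5 Ppp3ca, a calcineurin subunit, had a peak of rank 13 at 0.914 of 2502 bases, Grin2b, an NMDA receptor subunit, a peak at 0.99 of 18865 bases, and Camk2b a peak at 0.862. The other 3 genes of the list whose best-ranked peak was of E17.5 had it nearer the stop codon, at 0.1 in Grin1, 0.503 in Calm2 and 0.586 in Snap25. Shank1, a scaffold of the postsynapse, held 2 peaks at E15.5 and 5 at E17.5, while Vamp2, of synaptic vesicles, held 1, 2, 2 and 4. The median longest 3' UTR was 2602 bases in the cytoskeleton list and 2438 in the synapse list, against 961 in all genes, and the part of length in these counts was not tested. The peak lists hold no level of the transcripts, and in whole cortex more cells of a type and more RNA per cell cannot be told apart.

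**Figure D5:**
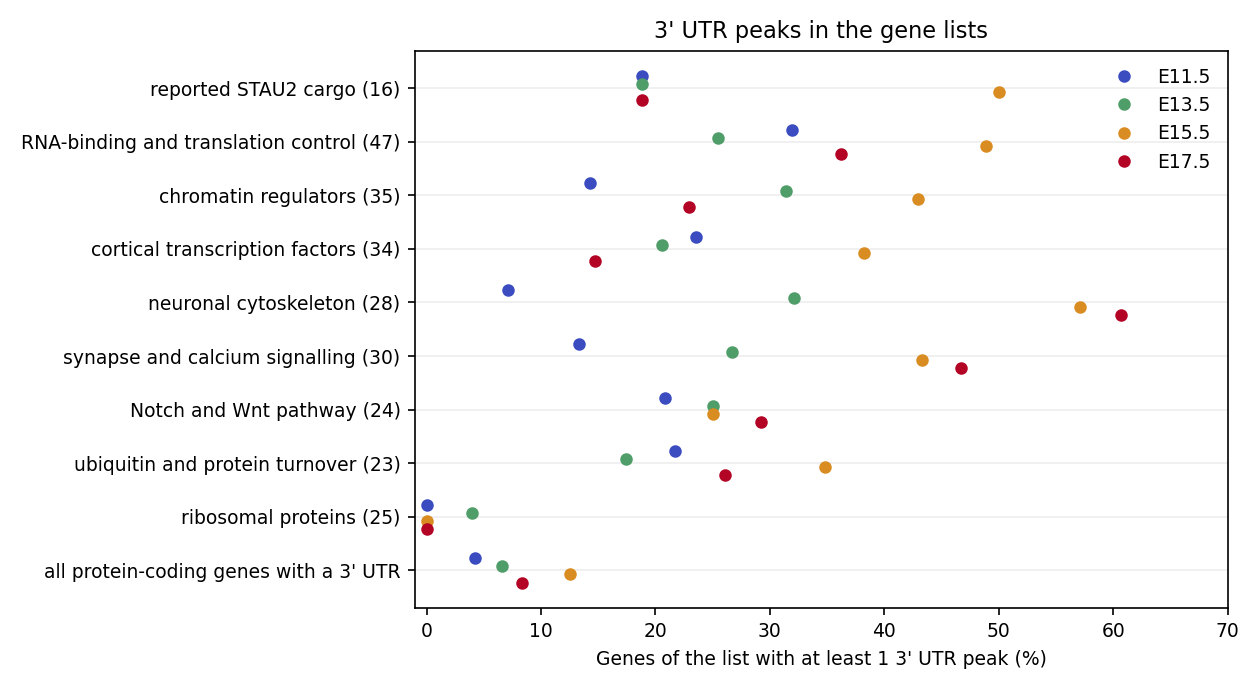
Share of the genes of each list that held at least 1 3' UTR peak (percent, x axis) by day (colour), with the number of genes in brackets and all protein-coding genes at the bottom. The cytoskeleton list stands at 7.14% at E11.5 and 60.7% at E17.5, 5 other lists are highest at E15.5, and ribosomal proteins are at 0 on 3 days.

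RNA-binding and translation control genes were hosts on every day: 15 of 47 (31.9%) at E11.5, 12 (25.5%) at E13.5, then 23 (48.9%) at E15.5 and 17 (36.2%) at E17.5, with 31 on any day and a median longest 3' UTR of 2610 bases. Dgcr8, a cofactor of microRNA processing, held 1, 1, 4 and 1 peaks over the days, and the other 2 listed throughout were Nova2 and Msi1. Celf2, a splicing regulator, held 4 peaks at E11.5, the strongest at 0.514 of 7381 bases, then 2, none and 1. Ago2, the argonaute of microRNA silencing, held 2, 2, 5 and none. Ddx6, a helicase of translational repression, held 3, 1, 4 and none, and the neuronal Elavl3 3, none, 2 and 1. Larp1 held 1 at E15.5 and 3 at E17.5. Stau1, the other mammalian Staufen gene, had a peak at E17.5 alone, at 0.566.

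Of 16 transcripts reported as STAU2 cargo, 3 were hosts at E11.5, 3 at E13.5, then 8 at E15.5 (50%) and 3 at E17.5, while no gene of the list was a host on all 4 days. Stau2 itself held 1 peak at E13.5, then 2 at E15.5 and 1 at E17.5 in its 2291 bases. Xiap, an inhibitor of caspases, held 2 at E11.5 and 2 at E15.5, and Bcl2l1, a survival factor, and Trim32, a ubiquitin ligase of differentiating progenitors, held 1 each at E15.5. Cplx1 held 2, 3 and 2 on the later 3 days, while the only Calm3 peak was that of E11.5. Map2, Camk2a, Rgs4, Limk1, Prox1, Ddx1 and Bbs2 held none.

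Chromatin regulators numbered 5 hosts of 35 (14.3%) at E11.5, 11 (31.4%) at E13.5, then 15 (42.9%) at E15.5 and 8 (22.9%) at E17.5. Kmt2a, a histone methyltransferase gene, held 8 peaks at E15.5 and 1 each at E11.5 and E17.5. Smarca4, a nucleosome remodeller, had a peak of rank 43 at E15.5 at 0.135 and 1 peak at E13.5. The demethylase gene Kdm6b and the remodeller gene Chd2 were hosts on all 4 days. Cortical transcription factors gave 8 of 34 (23.5%), 7 (20.6%), 13 (38.2%) and 5 (14.7%). Nfia, of gliogenesis, had a peak of rank 45 at E15.5, at 0.962 of 7639 bases. Foxp1 held 3 peaks at E11.5 alone, and Bcl11a held 2, 1, 3 and 3. Eomes, which marks intermediate progenitors, held 2 peaks at E13.5 and 1 at E15.5, and Tbr1, of deep-layer neurons, held 1, none, 2 and 2.

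Notch and Wnt pathway genes stood at 5, 6, 6 and 7 of 24 over the days, and none was a host on all 4. Their hosts included the ligand gene Dll3 at E13.5, the receptor genes Notch1 at E15.5, Notch2 at E17.5 and Fzd3 at E11.5, and the effector Ctnnb1, beta-catenin, with 2 peaks at E15.5. Ubiquitin and protein turnover genes stood at 5, 4, 8 and 6 of 23, with the conjugating enzyme gene Ube2b listed on all 4 days. Ribosomal protein genes, with a median longest 3' UTR of 81 bases, gave 1 host of 25, Rps3 at E13.5.

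The lists of cell types were read for the label of the tissue. Of 9 markers of cortical neurons, 1, 4, 5 and 2 were hosts over the 4 days, of 6 markers of intermediate progenitors 1, 3, 4 and 0, of 8 of radial glia 0, 1, 1 and 1, and of 7 of interneurons 0, 1, 1 and 2. Markers of vessels and meninges gave 1, 5, 1 and 0 of 10, and the 5 at E13.5 were the collagen genes Col1a1, Col1a2, Col3a1, Col4a1 and Col4a2. The other 5 of that list, Pecam1, Cldn5, Kdr, Flt1 and Cdh5, were hosts on no day. None of 8 blood genes was a host on any day, and of 6 microglia genes Csf1r was a host at E13.5. The part of vessels and meninges in the E13.5 members was not tested. A gene without a peak is not shown to be absent, since the lists give no level.

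Compared with peaks in the coding sequence, 3' UTR peaks were slightly wider, lower in GC and predicted to fold less stably, on each of the 4 days. There were 5628 CDS peaks, chosen by midpoint in the same way. The median width was 77, 76, 78 and 81 bases for 3' UTR peaks from E11.5 to E17.5 in time order, and 69, 72, 70 and 71 bases for CDS peaks, a mean difference of 7.5 ± 2.52 bases (SD over 4 days). GC content was 46.4%, 46.9%, 45.8% and 48.3% for 3' UTR peaks and 52.5%, 53.3%, 54.4% and 55.9% for CDS peaks, a difference of -7.18 ± 1.13 percentage points. The minimum free energy from RNAfold, for peaks of up to 300 bases, was -0.169, -0.188, -0.19 and -0.192 kcal/mol per base for 3' UTR peaks and -0.193, -0.2, -0.218 and -0.225 for CDS peaks, a difference of 0.0244 ± 0.00892. These 3 measures had an exact two-sided sign-flip permutation p of 0.125 each, the smallest that 4 days allow (adjusted p = 0.167 over 4 measures), so none can pass 0.05. The whole 3' UTRs of the peaks had a median GC of 43.2%, 45.4%, 44.9% and 47% over the days, and the GC of whole coding sequences was not measured. The part of the regions themselves in these differences was therefore not tested, nor was the part of GC in the difference in folding. The authors' deposited signal, whose libraries and scaling are not stated, had medians of 39.7, 26.1, 28.2 and 28.4 for 3' UTR peaks and 42.1, 32, 26.9 and 30.4 for CDS peaks. On the log2 scale that difference was -0.10 ± 0.15 (exact permutation p = 0.25, adjusted p = 0.25), with E15.5 of the other sign.

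Peaks were more often than not of higher GC than their whole 3' UTR. Against the sequence beside them the result differed by measure, flank and day. The GC content of a peak was above that of its whole 3' UTR in 60.5% (57.5 to 63.5) of peaks at E11.5, 56.1% (53.5 to 58.6) at E13.5, then 52.8% (51.1 to 54.5) at E15.5 and 54.2% (52 to 56.4) at E17.5. Set against the flank of its own width on the stop-codon side, the peak had the higher GC in 52.3% (48.9 to 55.7), 47.5% (44.7 to 50.3), 47.2% (45.4 to 49.1) and 46.1% (43.7 to 48.6) of pairs over the days. Against the flank on the other side these shares were 56.2% (52.9 to 59.6), 51.2%, 50.5% and 51.8%, and the intervals of the later 3 days include 50%. The median GC of these peaks was 46.2%, 46.8%, 45.4% and 48%. It was 44.7%, 45.8%, 45.1% and 48.2% in the flank on the stop-codon side, and 43.6%, 44.6%, 44% and 46.1% in the other flank. How many pairs had equal GC is not given, so a share below 50% need not mean that peaks had the lower GC. In folding, pairs of equal energy are not given either. The peak had lower energy than the flank on its stop-codon side in 45.2% (41.8 to 48.5) of pairs at E11.5 and 43.4% (40.9 to 45.9) at E17.5. At E13.5 and E15.5 the share was 48.9% (46.1 to 51.6) and 50.6% (48.8 to 52.4). Against the flank on the other side it was 49.4%, 53.7%, 51.4% and 50.3% over the days. The shares of both measures thus differed between flanks and days.

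Of 4 short sequence elements of 3' UTRs, 3 had a lower share in the peaks than in 3' UTRs at large on some or all days. The share of the AU-rich pentamer was below that of all genes on all 4 days, that of the poly(A) signal at E15.5 and E17.5 and that of a run of T at E13.5 and E17.5, each with an interval that excludes the value of all genes, and the Pumilio element was within its intervals throughout. Against the host 3' UTRs, the interval of the pentamer excluded their value at E17.5 alone. Read on the opposite strand, where no intervals were made, all 4 elements were below the share of all genes on all 4 days. The 3 elements with a lower share on the RNA strand hold only A and T. The part of base composition, and of place along the 3' UTR, in these shares was not tested. In the central 50 bases of a peak on the RNA strand, the poly(A) signal AATAAA was present in 2.96% (1.98 to 4.25), 3.66% (2.74 to 4.79), 2.59% (2.06 to 3.2) and 1.94% (1.35 to 2.69) of peaks over the days, against 3.42% of 50-base tiles of the host 3' UTRs and 3.92% of those of all genes. The AU-rich pentamer ATTTA was in 5.71% (4.32 to 7.38), 6.1% (4.9 to 7.49), 6.9% (6.03 to 7.84) and 5.54% (4.53 to 6.69) of peaks, against 7.16% of host tiles and 7.99% of all tiles. The Pumilio element TGTANATA was in 0.951%, 1.36%, 1.12% and 0.941% of peaks, against 0.952% of host tiles and 0.964% of all tiles. A run of 7 T was in 2.75% (1.8 to 4), 1.58% (0.992 to 2.38), 2.65% (2.12 to 3.27) and 1.5% of peaks, against 2.59% of host tiles and 2.42% of all tiles. On the opposite strand AATAAA was read in 2.75%, 3.37%, 3.83% and 3.6% of peaks and 4.29% of all tiles, and ATTTA in 6.13%, 6.1%, 6.96% and 5.09% of peaks and 8.05% of all tiles. There TGTANATA was read in 0.211%, 0.574%, 0.543% and 0.554% of peaks and 0.625% of all tiles, and the run of T in 0.951%, 1.58%, 0.99% and 1.16% of peaks and 1.81% of all tiles. A base could count toward more than 1 element.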

How the data were processed

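STAU2 RIP and input RNA of mouse cortex was sequenced by the authors at 4 days in 24 libraries, made with a strand-keeping ScriptSeq kit per the labels' protocols. The submitters' processing notes name mm10, Cufflinks 2.2.1, bedtools 2.17.0, TopHat2 2.0.9 and TopHat with no role; the peak caller is not given in the sources used here. The authors deposited 8 headerless peak lists, 1 per day and strand. Each peak has a score (a whole number that falls as q rises, not used here), a signal that is positive and of unstated scaling, and a p-value and q-value as deposited by the authors, whose test and whether it was one-sided are not stated. Depth is unknown. Columns of other samples not used: 0.

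Peaks were placed on GENCODE vM21 gene models (GRCm38, the assembly mm10 names), spliced, with Python 3.11.15, numpy 2.4.6 and scipy 1.17.1. Sequences came from GENCODE transcripts and were folded with ViennaRNA 2.7.2. The division of transcripts into UTRs and the spliced positions were tested on simulated transcripts, and the other steps were not. Ranks are by deposited p over all peaks of a day. The numbers of candidate regions are estimates, made from the ratio of q to p times the rank within a strand's list and summed over strands. They assume that q is p times the number of candidates over that rank. In the minus list of E13.5 the ranks leave room for 2 candidates outside the list. Named were the 6 hosts with the smallest p per day, the 8 best-ranked hosts of all 4 days, the hosts with the most peaks, the 5 best-ranked positions of 4 days and the list genes with peaks. A rule of 3 hosts for the most peaks met a tie, so all 6 hosts with 14 or more are given. The 3 positions of 3 days were shown as well. The members and the gene lists were chosen with earlier results of these data known. Alternatives were the definition of a 3' UTR peak, the isoform, the strength, number and width of peaks, the q threshold, 1 peak per host, overlapping genes and the overlap that counts as shared. Per-day results have no test. The labels call the libraries biological replicates, and none has values of its own.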

Additional observations from a re-analysis of the deposited data

How the results depend on the processing

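In 3' UTRs of 4000 bases and more, a class whose settings were chosen after seeing the data, the median position was higher at E17.5 than at E11.5 under all 8 settings tried. Measured on the shortest 3' UTR that holds the midpoint, the medians there were 0.5, 0.638 and 0.639 at E11.5, E13.5 and E15.5, and 0.812 at E17.5, and over all 3' UTRs 0.502, 0.535, 0.519 and 0.563. Host 3' UTR lengths then were 1502, 1198, 1332 and 1075 bases, and with the coding transcript of the longest CDS only 1610, 1306, 1476 and 1129, since both settings take shorter annotated 3' UTRs; E11.5 stayed the highest and E17.5 the lowest. The stronger 50% of peaks held 585, 926, 1987 and 1217 members, and lists shortened to equal length left 2252 at E15.5. At a deposited q of at most 0.001 the members numbered 1, 0, 0 and 1, too few for any other value. Overlaps between days fell to between 2.75% and 11.6% when at least 50% of both peaks had to be shared. All 24 alternatives of the comparison with CDS peaks kept their direction. No paired analysis was possible because the lists carry no replicate columns. Depth is unknown, so the smaller number of members at E11.5 cannot be told apart from a difference in depth or calling.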
